A study of Mus musculus with 10 samples.

Results

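The transcripts of 10 chemokine genes were followed in mouse hearts: Ccl2, Ccl5, Ccl7, Ccl8, Ccl11, Cxcl1, Cxcl10, Cxcl12, Cxcl14 and Cx3cl1. They were taken by symbol, as every probe set of the array whose platform annotation names 1 of these genes and no other. That gave 18 of 45037 probe sets, and 10 of the 18193 genes that have such a probe set. Ccl2, Ccl5, Ccl7, Ccl8, Ccl11 and Cxcl10 had 1 probe set each, Cxcl14 had 2, Cxcl1 and Cxcl12 had 3, and Cx3cl1 had 4. The hearts came from male SV129 littermates aged 32 weeks, and the study's title concerns the atypical protein kinase C zeta (PKCz) in cardiac hypertrophy. Osmotic minipumps placed under the skin delivered angiotensin II (AngII, 432 µg/kg/day), a peptide that constricts vessels and drives growth of the heart muscle, for 14 days. The 4 groups were AngII in PKCZ -/- mice (KO AngII, n = 2), PBS in PKCZ -/- mice (KO PBS, n = 3), AngII in wild-type mice (WT AngII, n = 3) and PBS in wild-type mice (WT PBS, n = 2). The titles and the study design name PBS for the control mice while another label calls them non-treated, so whether they carried pumps is not settled. Each array is called by its group and the number in its title. No label states that each array is a separate animal. The p-values therefore cover the spread between these arrays alone, part or all of which may be technical.

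Chemokines are small secreted proteins that draw leukocytes along a gradient by binding G protein coupled receptors. Inducible members such as Ccl2, Ccl7, Cxcl1 and Cxcl10 are transcribed after inflammatory signals, many of them through the transcription factor NF-kB or through interferon response elements, whereas Cxcl12 and Cxcl14 are made constitutively by stromal and other tissue cells. In the heart Ccl2 and its receptor Ccr2 are known for the recruitment of monocytes, and Cxcl12 and its receptor Cxcr4 for vessel formation and repair.

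The promoters of 4 members are shown because these genes bear on the pattern described next: Cxcl1 and Cxcl10 are both known as NF-kB targets and differed in how far they varied between the arrays, Cxcl14 had the smallest p-value of the members, and Ccl8 varied most within a group of treated hearts. Each sequence runs from 250 bases before to 50 bases after the transcription start (RefSeq, GRCm38.p6), at chr5:90890995-90891294 (plus strand), chr5:92348840-92349139 (minus strand), chr13:56296502-56296801 (minus strand) and chr11:82114935-82115234 (plus strand). Capitals mark matches, on either strand, to an NF-kB motif (GGGA, any 2 bases, TTCC), an AP-1 motif (TGANTCA) or an interferon response element (TTTC, any 2 bases, TTTC).
Cxcl1: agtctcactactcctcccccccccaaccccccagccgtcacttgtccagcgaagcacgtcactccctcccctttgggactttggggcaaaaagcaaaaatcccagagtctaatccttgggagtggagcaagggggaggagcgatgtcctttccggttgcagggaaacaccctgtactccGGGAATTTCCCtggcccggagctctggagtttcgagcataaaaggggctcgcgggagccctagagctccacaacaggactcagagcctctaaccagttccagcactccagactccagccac
Cxcl10: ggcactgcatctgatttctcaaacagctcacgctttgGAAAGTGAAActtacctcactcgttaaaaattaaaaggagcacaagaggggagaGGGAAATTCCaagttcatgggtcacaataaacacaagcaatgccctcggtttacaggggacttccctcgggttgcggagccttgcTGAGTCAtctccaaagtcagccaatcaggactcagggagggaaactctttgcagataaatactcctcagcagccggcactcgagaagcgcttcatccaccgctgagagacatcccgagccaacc
Cxcl14: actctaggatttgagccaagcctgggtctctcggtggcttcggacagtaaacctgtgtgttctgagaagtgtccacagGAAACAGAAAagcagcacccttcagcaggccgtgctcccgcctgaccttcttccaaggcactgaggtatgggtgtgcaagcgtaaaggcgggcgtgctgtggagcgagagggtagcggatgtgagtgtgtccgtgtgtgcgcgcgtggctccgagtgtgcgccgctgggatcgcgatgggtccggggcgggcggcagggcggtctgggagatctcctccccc
Ccl8: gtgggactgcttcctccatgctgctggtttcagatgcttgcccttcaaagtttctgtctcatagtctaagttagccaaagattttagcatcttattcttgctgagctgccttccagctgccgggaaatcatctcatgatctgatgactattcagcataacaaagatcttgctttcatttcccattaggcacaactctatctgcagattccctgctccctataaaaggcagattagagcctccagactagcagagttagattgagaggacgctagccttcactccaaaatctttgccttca
The capitals in Cxcl1 are 2 NF-kB matches that overlap. Cxcl10 held the interferon response element, the NF-kB motif and the AP-1 motif in that order toward the start site, and Cxcl14 held an interferon response element alone. Ccl8 held none of the 3 motifs and a TATAAA sequence in front of its start. Promoters were found for 6 of the 10 members. Those of Cxcl12 and Cx3cl1 also held none of the 3 motifs, and that of Cx3cl1 held TATAAA too. Of 32851 mouse promoters of this length, 1.47% held the NF-kB motif, 7.81% the AP-1 motif, 3.44% the interferon response element and 13.6% TATAAA. A match is a description of the letters and does not show that a factor binds there.

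The values are log2 expression levels that the authors made with RMA, and differences are log2 differences ± SE from limma over all 10 arrays. A level is on the scale of its own probe set, so levels of different probe sets are not set against each other. Polyadenylated control transcripts, added to the RNA before labelling, split the arrays into 3 with low readings (KO AngII 3, KO AngII 4 and KO PBS 4, 6.90 to 7.08) and 7 with high readings (12.86 to 13.33). The labels name no batch. Since both KO AngII arrays lie on the low side, a value with this split as a block is given beside several differences, and the plot of differences shows it for all 18 probe sets. KO PBS 4 is the only other low array. With the block, AngII in KO is therefore the KO AngII mean minus that single array. The block values of the interaction and of KO against WT under AngII rest on KO PBS 4 too. The signal of beta-actin at its 3′ end minus that at its 5′ end, a measure of RNA integrity, lay between 0.74 and 0.83 for the 3 arrays with low readings and between 0.92 and 1.70 for the other 7, and its part in the differences was not tested. One array stood apart in its tissue markers. On WT AngII 2 the mean level of 8 fibroblast markers was 12.15, against 9.43 to 10.62 on the other 9 arrays, and that of 12 macrophage markers was 9.50, against 8.11 to 8.66. The 6 cardiomyocyte markers, with means from 13.94 to 14.10 on all 10 arrays, fit the label heart. The targeted gene, Prkcz, read 5.70 to 5.87 on the 5 KO arrays and 6.23 to 6.45 on the 5 WT arrays at 1 of its 3 probe sets (1418085_at), with adjusted p = 0.437 under PBS and 0.734 under AngII. The other 2 probe sets overlapped between genotypes, and whether any lies in the deleted part is not given.

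Ccl2 and Ccl7 were high on WT PBS 3 alone, and Cxcl14 (1418457_at) was lowest in KO PBS hearts. Cx3cl1 (1415804_at) lay above PBS in the AngII hearts of both genotypes, by 0.44 ± 0.18 in KO and 0.54 ± 0.18 in WT. The other Cx3cl1 probe sets did not show this order in both genotypes. Across the 5 comparisons no chemokine probe set passed an adjusted p of 0.05, and the smallest adjusted p among the members was 0.438. For AngII in KO hearts 0 of 18 were called, against 0% of all probe sets. At an unadjusted p under 0.05 there were 4, against a background of 4.57%, all 4 with KO AngII above KO PBS (2.17%) and 0 with KO AngII below (2.4%). The KO AngII and KO PBS arrays did not overlap for 7 of the 18 (24.5% of all probe sets), 4 with KO AngII higher (13.7%) and 3 with KO AngII lower (10.8%). For AngII in WT hearts 0 were called (0% of all) and 7 had an unadjusted p under 0.05 (5.23%), 1 with WT AngII higher (1.71%) and 6 with WT AngII lower (3.52%). The groups did not overlap for 7 (19.7%), 2 higher (8.4%) and 5 lower (11.3%). The AngII effect in KO minus that in WT, the interaction, gave 0 calls (0%) and 1 unadjusted p under 0.05 (1.64%), above 0 (1.15%). KO against WT under PBS gave 0 calls among the members (0.0133% of all probe sets) and 3 unadjusted p under 0.05 (6.29%), 0 with KO higher (2.72%) and 3 with KO lower (3.58%). The groups did not overlap for 5 of the 18 (24%), 0 with KO PBS higher (13.2%) and 5 with KO PBS lower (10.8%). KO against WT under AngII gave 0 calls (0.0111%) and 3 unadjusted p under 0.05 (6.51%), 2 with KO higher (3.22%) and 1 with KO lower (3.28%). There were 8 probe sets without overlap (27.1%), 6 with KO AngII higher (16%) and 2 with KO AngII lower (11.2%). Without WT PBS 3 the members with an unadjusted p under 0.05 were 5 for AngII in KO (4.13% of all probe sets), 2 for AngII in WT (5.3%), 3 for the interaction (1.72%), and 4 (5.92%) and 2 (5.8%) for KO against WT under PBS and AngII. Without WT AngII 2 they were 5 (8.01%), 7 (11.2%), 3 (3.44%), 3 (9.78%) and 1 (5.53%) in the same order. With the control transcript level as a block they were 1 (0.908%), 8 (5.55%), 1 (1.55%), 3 (4.88%) and 0 (1.65%).

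**Figure D1:**
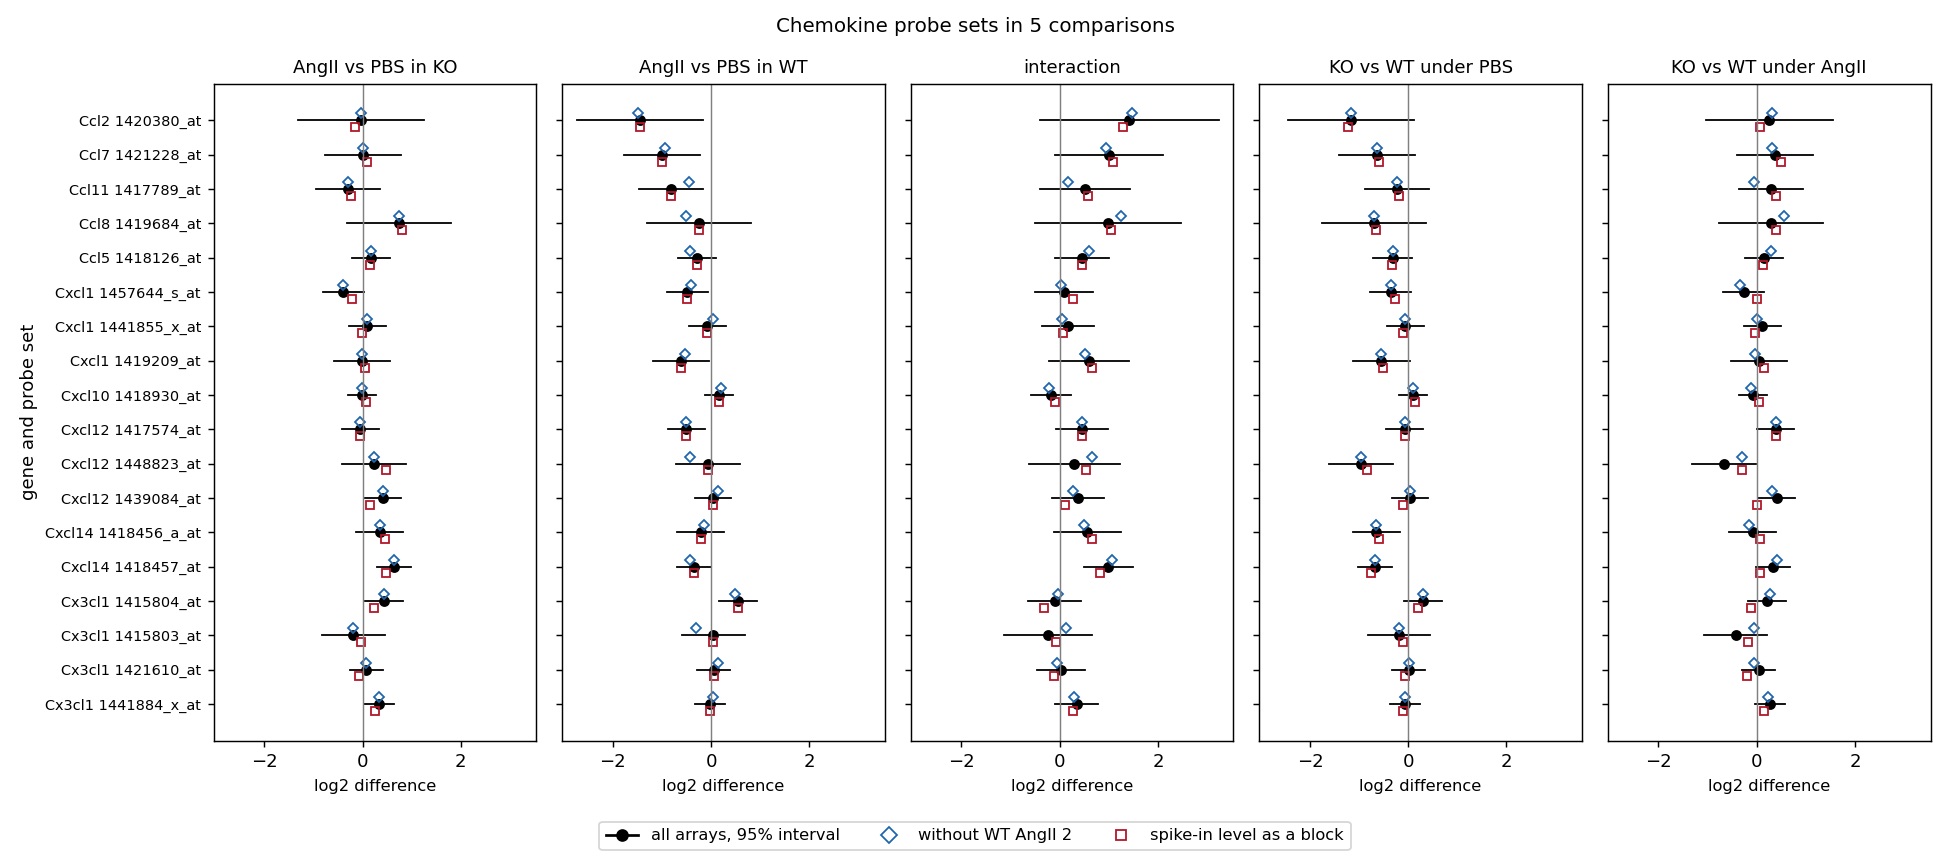
Log2 difference (horizontal axis) of each of the 18 chemokine probe sets (rows) in the 5 comparisons (panels), with filled points and 95% intervals from all 10 arrays, open diamonds without WT AngII 2 and open squares with the control transcript level as a block. The widest intervals are those of Ccl2, where AngII against PBS in WT spans -2.73 to -0.16, and the interaction of Cxcl14 (1418457_at) spans 0.50 to 1.48.

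With each gene taken at its brightest probe set, the median difference over the 10 members was −0.01 for AngII in KO and −0.39 for AngII in WT, with 8 of 10 below 0 in WT, while the median over all genes lay within 0.01 of 0 in each comparison. The median interaction was 0.49. KO minus WT was −0.34 in the PBS groups and 0.23 in the AngII groups. The medians that involve WT PBS hearts leaned on a single array. Without WT PBS 3 they became −0.24 for AngII in WT, 0.19 for the interaction and 0.09 for KO against WT under PBS. Without WT AngII 2 the median was −0.44 for AngII in WT, 0.48 for the interaction and 0.27 for KO against WT under AngII. KO against WT under PBS uses no WT AngII array, so its median cannot change there. With the control transcript level as a block, KO against WT under AngII was 0.10. The comparisons share their control arrays, so the medians are not independent of each other.

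**Figure D2:**
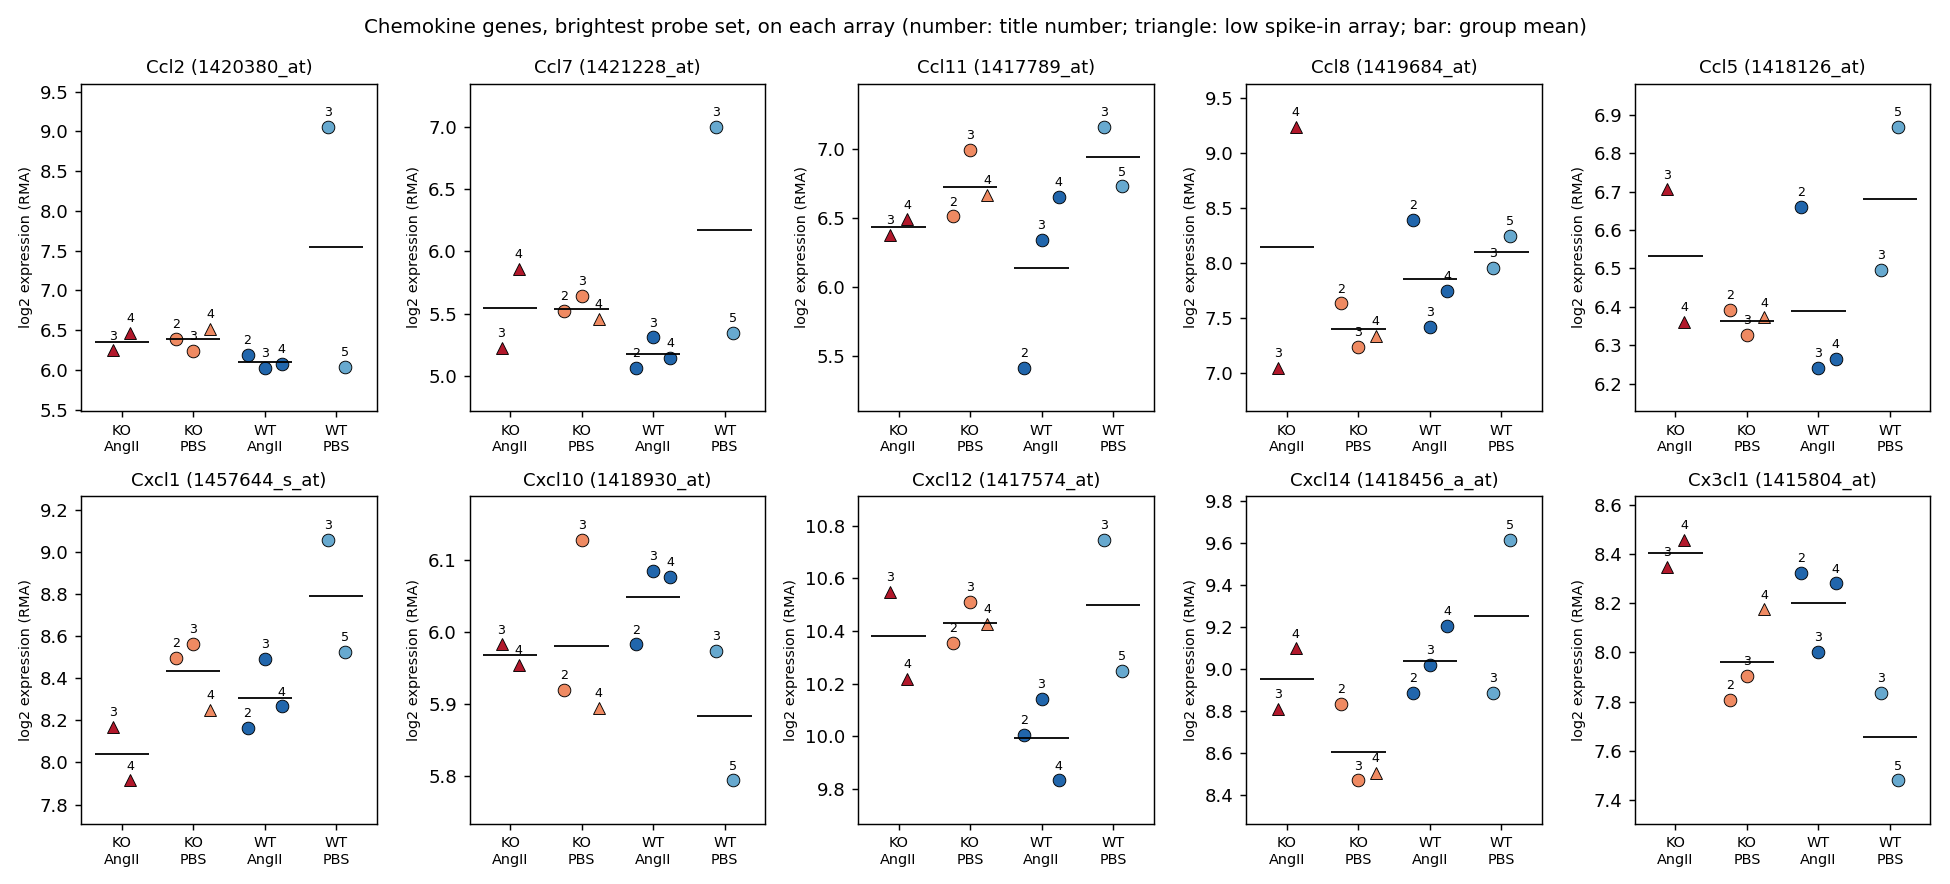
Log2 expression (vertical axis, one scale per panel) of the brightest probe set of each of the 10 chemokine genes on the 10 arrays, in the order KO AngII, KO PBS, WT AngII, WT PBS, with numbers for the titles, triangles for arrays with low control transcripts and bars for group means. Ccl2 reads 6.03 to 6.51 on 9 arrays and 9.06 on WT PBS 3, and Cxcl10 stays between 5.79 and 6.13 on all 10.

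Ccl2, the main chemoattractant of monocytes, stood at one level on 9 arrays and far above it on the other. Its probe set 1420380_at read 6.24 and 6.46 in KO AngII hearts, 6.39, 6.24 and 6.51 in KO PBS hearts, 6.18, 6.03 and 6.08 in WT AngII hearts, and 9.06 and 6.03 in WT PBS hearts. WT PBS 3 thus lay 2.54 above the next array, a gap that 0.0777% of probe sets reached on any array, and the second WT PBS heart was among the lowest. The group differences follow that array: AngII in WT gave −1.45 ± 0.59 (adjusted p = 0.929) and 0.06 without WT PBS 3, and KO against WT under PBS gave −1.16 ± 0.59 (0.813) and 0.35 without it. The interaction was 1.42 ± 0.83 and −0.09 without it. When WT PBS 5 was left out instead, so that WT PBS 3 stood alone for its group, the differences were −2.96 (adjusted p = 5.888e-04), −2.67 (5.695e-04) and 2.93 (0.00744). These are the lowest adjusted p-values over the alternative settings, and the highest were 0.9998, 1 and 1. Under AngII both KO arrays were above all 3 WT arrays by a mean of 0.26 ± 0.59, or 0.06 with the block. In bulk tissue, fewer cells of a type and less RNA per cell cannot be told apart.

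Ccl7, a monocyte attractant that neighbours Ccl2 on chromosome 11, was also highest on that array. It read 5.23 and 5.86 in KO AngII hearts, 5.52, 5.64 and 5.46 in KO PBS hearts, 5.07, 5.31 and 5.15 in WT AngII hearts, and 7.0 and 5.35 in WT PBS hearts. WT PBS 3 exceeded every other array by 1.14, and all 3 WT AngII arrays lay below WT PBS 5 as well. AngII against PBS in WT was −1.0 ± 0.35 (adjusted p = 0.929), which was −0.17 without WT PBS 3 and −1.82 without WT PBS 5, and the interaction of 1.0 ± 0.50 became 0.18 and 1.83. Among all 45037 probe sets, 9 had WT PBS 3 highest by at least 1 log2, and Ccl2 was the single one highest by at least 2. Besides Ccl2 and Ccl7 these were 3 probe sets of Uck2, a pyrimidine salvage kinase, and 1 each of Lmcd1, Ch25h, which makes 25-hydroxycholesterol, Gas2l3, and Socs3, a feedback inhibitor of cytokine signalling; these names were chosen after their values were seen. WT PBS 3 was the highest array for 6 of the 18 chemokine probe sets and for 6.4% of all probe sets.

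The next genes of the cluster, in map order Ccl11, Ccl12 and Ccl8, did not share one pattern. Ccl11, or eotaxin, an attractant of eosinophils, read 6.38 and 6.49 in KO AngII hearts, 6.51, 6.99 and 6.67 in KO PBS hearts, 5.42, 6.34 and 6.65 in WT AngII hearts, and 7.16 and 6.73 in WT PBS hearts. In both genotypes every AngII array lay below every PBS array, by −0.29 ± 0.30 in KO (adjusted p = 0.905, and −0.15 without KO PBS 3) and −0.81 ± 0.30 in WT (0.929). WT AngII 2 was lowest by 0.92, a gap that 0.0555% of probe sets reached on their lowest array, and without it the WT difference was −0.45. Ccl12, a monocyte attractant that was not a member, had WT PBS 3 highest at 7.97, followed by 7.21 on WT AngII 2 and 6.24 to 6.99 on the other 8 arrays. KO against WT under PBS was −0.93 ± 0.31 for it (adjusted p = 0.701), with no overlap, and −0.39 without WT PBS 3.

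Ccl8, whose human counterpart attracts monocytes, varied most in the hearts given AngII. It read 7.05 and 9.24 in KO AngII hearts, 7.63, 7.24 and 7.34 in KO PBS hearts, 8.39, 7.42 and 7.75 in WT AngII hearts, and 7.96 and 8.25 in WT PBS hearts. The 2 KO AngII arrays were the lowest and the highest of all 10, and so AngII against PBS in KO, 0.74 ± 0.48 (adjusted p = 0.892), was −0.36 without KO AngII 4 and 1.84 without KO AngII 3. Under PBS all KO arrays lay below both WT arrays, by −0.70 ± 0.48 (0.845). On KO AngII 4 Ccl2, Ccl7 and Ccl12 read 6.46, 5.86 and 6.99, above the 6.24, 5.23 and 6.31 of KO AngII 3. Ccl5, or RANTES, an attractant of T cells whose gene lies elsewhere on chromosome 11, spanned 6.24 to 6.87. It read 6.71 and 6.36 in KO AngII hearts, 6.39, 6.33 and 6.37 in KO PBS hearts, 6.66, 6.24 and 6.26 in WT AngII hearts, and 6.50 and 6.87 in WT PBS hearts. Under PBS the KO arrays again lay below both WT arrays, by −0.32 ± 0.18 (adjusted p = 0.814), a value of −0.51 without WT PBS 3 and −0.13 without WT PBS 5, while the AngII groups overlapped the PBS groups in both genotypes.

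**Figure D3:**
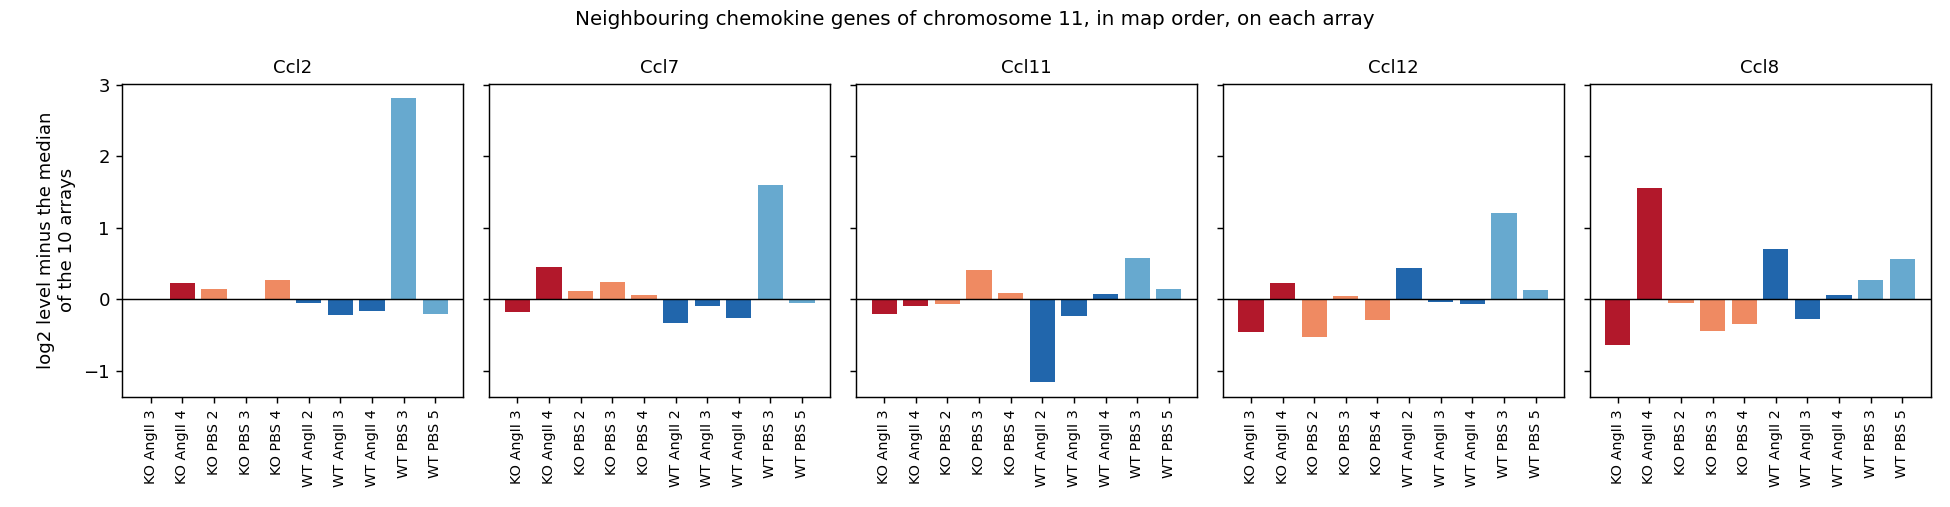
Log2 level minus the median of the 10 arrays (vertical axis) for 5 neighbouring chemokine genes of chromosome 11 in map order, with 1 bar per array from KO AngII on the left to WT PBS on the right. WT PBS 3 is the highest array for Ccl2, Ccl7, Ccl11 and Ccl12, KO AngII 4 is the highest for Ccl8, and WT AngII 2 is the lowest for Ccl11.

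Cxcl1, a neutrophil attractant that acts through Cxcr2, had 3 probe sets that disagreed in part. The brightest, 1457644_s_at, read 8.17 and 7.91 in KO AngII hearts, 8.50, 8.56 and 8.25 in KO PBS hearts, 8.16, 8.49 and 8.27 in WT AngII hearts, and 9.06 and 8.53 in WT PBS hearts. AngII arrays lay below PBS arrays in both genotypes, by −0.39 ± 0.19 in KO (adjusted p = 0.892) and −0.49 ± 0.19 in WT (0.929). These became −0.21 in KO with the control transcript level as a block and −0.22 in WT without WT PBS 3. The dim probe set 1419209_at read 5.75 and 5.73 in KO AngII hearts, 5.60, 5.99 and 5.69 in KO PBS hearts, 5.52, 5.76 and 5.79 in WT AngII hearts, and 6.88 and 5.73 in WT PBS hearts. It had WT PBS 3 on top by 0.89, and its AngII difference was −0.02 ± 0.26 in KO and −0.61 ± 0.26 in WT, where it was −0.04 without WT PBS 3. The remaining one, 1441855_x_at, kept to 7.82 to 8.35, with overlap in each comparison of groups; the x in its name marks probes that may also bind other transcripts.

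Cxcl10, an interferon-induced attractant of T cells and NK cells, was the member that varied least. It read 5.98 and 5.95 in KO AngII hearts, 5.92, 6.13 and 5.89 in KO PBS hearts, 5.98, 6.08 and 6.08 in WT AngII hearts, and 5.97 and 5.79 in WT PBS hearts. The whole range was 0.33 log2, and its SD over the arrays stood at percentile 10.3 of all probe sets, whereas that of Ccl2 stood at percentile 99.7. The mean level of Cxcl10, 5.98, lay below the median of all probe sets, 6.19. Whether a weak signal limited its range was not tested. All 3 WT AngII arrays lay above both WT PBS arrays, by 0.16 ± 0.13 (adjusted p = 0.929), or 0.07 without WT PBS 5. On WT PBS 3, where Ccl2, Ccl7 and the Cxcl1 probe sets 1457644_s_at and 1419209_at were at their highest, Cxcl10 read 5.97.

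Cxcl12 is the stromal ligand of Cxcr4 and of the scavenging receptor Ackr3. With all arrays, its probe sets gave opposite orders of KO and WT under AngII. The brightest, 1417574_at, read 10.55 and 10.22 in KO AngII hearts, 10.35, 10.51 and 10.43 in KO PBS hearts, 10.004, 10.14 and 9.83 in WT AngII hearts, and 10.75 and 10.25 in WT PBS hearts. WT AngII was the lowest group and overlapped no other: it lay −0.51 ± 0.17 from WT PBS (adjusted p = 0.929), and KO AngII lay 0.39 ± 0.17 above it (0.734). Neither moved by over 0.01 without WT AngII 2, and the WT difference was −0.26 without WT PBS 3. The difference under AngII was 0.22 without KO AngII 3. The probe set 1448823_at read 8.88 and 9.03 in KO AngII hearts, 8.95, 8.75 and 8.48 in KO PBS hearts, 10.35, 9.06 and 9.46 in WT AngII hearts, and 9.52 and 9.85 in WT PBS hearts. Here every KO array lay below every WT array under both treatments. The difference was −0.96 ± 0.30 under PBS (adjusted p = 0.671) and −0.84 with the block. Under AngII it was −0.66 ± 0.30 (0.734), and −0.30 either without WT AngII 2 or with the block. With both changes at once the sign was lost, at 0.06. The dim 1439084_at, at 6.33 to 7.02, had KO AngII above KO PBS by 0.41 ± 0.17 and above WT AngII by 0.41 ± 0.17, and these values were 0.15 and 0.01 with the block.

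Cxcl14, a chemokine made by epithelial and stromal cells, held the smallest p-values of the members. Its probe set 1418457_at read 8.40 and 8.52 in KO AngII hearts, 7.82, 7.64 and 7.99 in KO PBS hearts, 8.30, 8.0 and 8.12 in WT AngII hearts, and 8.43 and 8.53 in WT PBS hearts. KO PBS was the lowest group and overlapped no other group, while KO AngII overlapped WT PBS. KO against WT under PBS was −0.67 ± 0.16 (adjusted p = 0.438), a value of −0.75 with the block and −0.72 without WT PBS 3. AngII against PBS was 0.65 ± 0.16 in KO (0.892), or 0.48 with the block, and −0.34 ± 0.16 in WT (0.929), or −0.42 without WT AngII 2. The interaction was 0.99 ± 0.22, with a 95% interval of 0.50 to 1.48. It lay at 1.07 without WT AngII 2, at 0.82 with the block and at 1.04 without WT PBS 3, and its adjusted p over all probe sets was 1. KO against WT under AngII was 0.33 ± 0.16, or 0.07 with the block.

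The second Cxcl14 probe set, 1418456_a_at, had the same order for the PBS groups and more overlap elsewhere. It read 8.81 and 9.10 in KO AngII hearts, 8.83, 8.47 and 8.50 in KO PBS hearts, 8.89, 9.02 and 9.20 in WT AngII hearts, and 8.89 and 9.62 in WT PBS hearts. Under PBS the KO arrays lay below both WT arrays by −0.65 ± 0.22 (adjusted p = 0.701). The AngII difference was 0.35 ± 0.22 in KO and −0.21 ± 0.22 in WT, with overlapping groups in both, and the interaction was 0.57 ± 0.31. These values leaned on the 2 WT PBS arrays. AngII in WT was −0.58 without WT PBS 3 and 0.15 without WT PBS 5, the interaction was 0.93 and 0.20, and KO against WT under PBS was −1.02 and −0.28. For both probe sets the 2 genotypes were farther apart under PBS than under AngII in absolute value, where 1418456_a_at gave −0.08 ± 0.22.

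**Figure D4:**
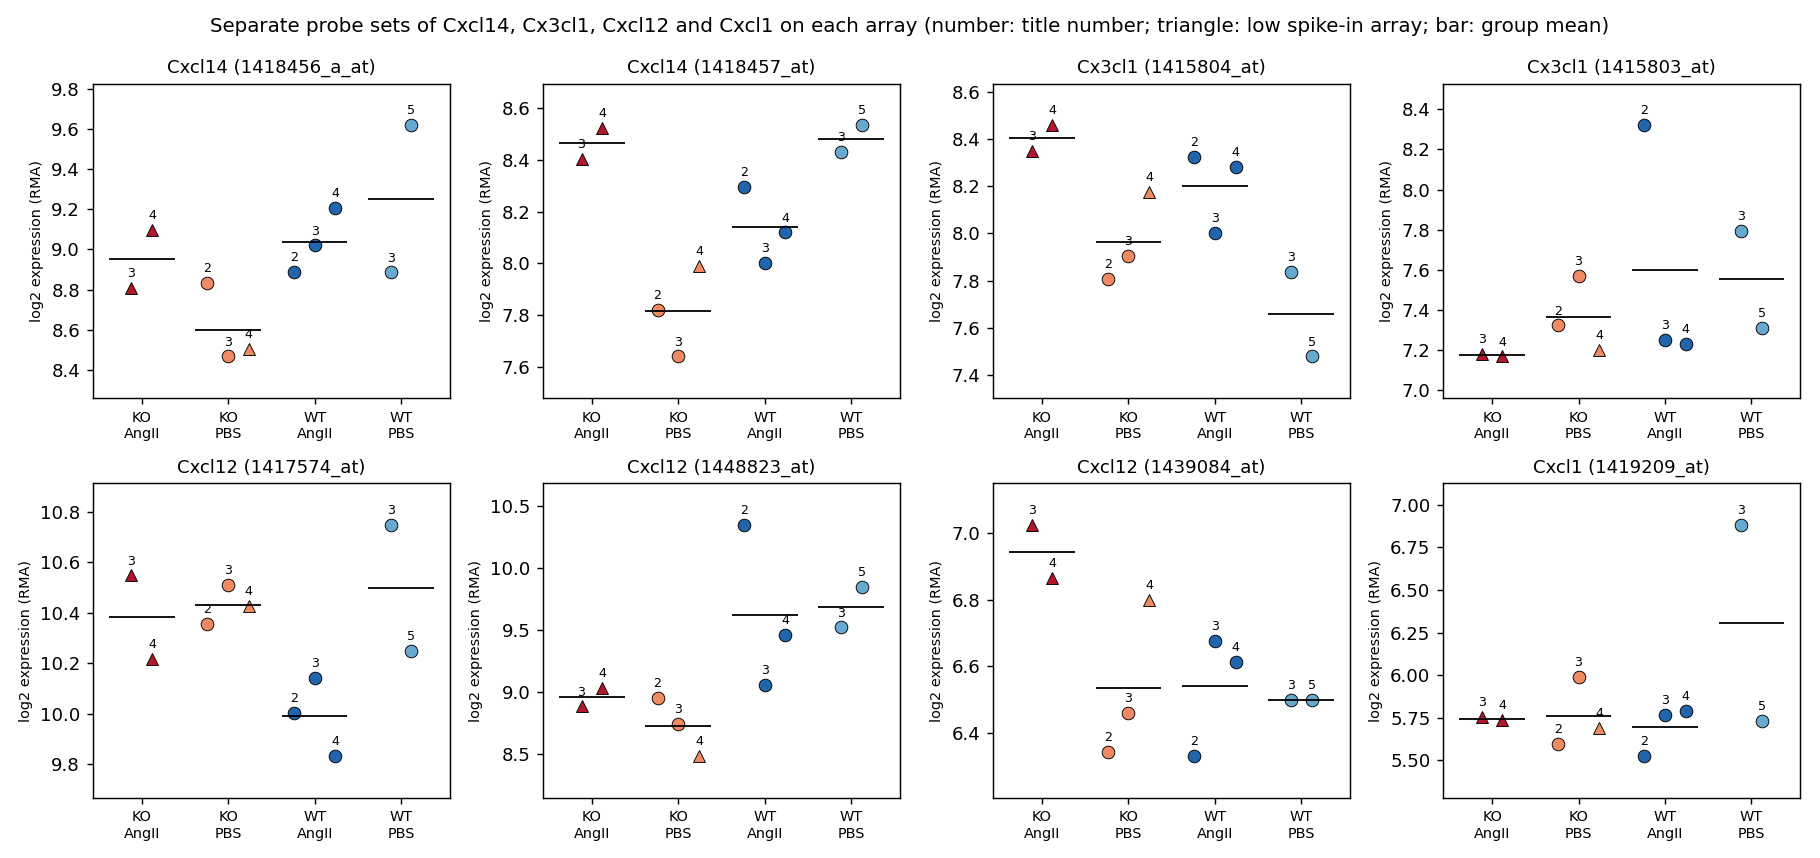
Log2 expression (vertical axis, one scale per panel) on the 10 arrays for 8 probe sets of Cxcl14, Cx3cl1, Cxcl12 and Cxcl1, with KO AngII, KO PBS, WT AngII and WT PBS from left to right, numbers for the titles, triangles for arrays with low control transcripts and bars for group means. KO PBS is the lowest group for Cxcl14 (1418457_at, 7.64 to 7.99), and WT AngII 2 stands on top for Cx3cl1 (1415803_at, 8.32) and Cxcl12 (1448823_at, 10.35).

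Cx3cl1, or fractalkine, is anchored in the membrane of endothelial and other cells and is freed by proteases to attract cells that carry Cx3cr1. Its brightest probe set, 1415804_at, read 8.35 and 8.46 in KO AngII hearts, 7.81, 7.90 and 8.18 in KO PBS hearts, 8.32, 8.0 and 8.28 in WT AngII hearts, and 7.84 and 7.48 in WT PBS hearts. Every AngII array lay above every PBS array of its genotype, by 0.44 ± 0.18 in KO (adjusted p = 0.892) and 0.54 ± 0.18 in WT (0.929). Both KO AngII arrays had low control transcripts, and the KO value was 0.23 with that level as a block, whereas the WT arrays all lay on the high side. The WT value was 0.48 without WT AngII 2, 0.72 without WT PBS 3 and 0.37 without WT PBS 5. It was 0.26 with the title number as a block. Averaged over all its probe sets, Cx3cl1 differed by 0.17 in KO and 0.16 in WT. The other probe sets did not show this order in both genotypes. The probe set 1415803_at read 7.18 and 7.17 in KO AngII hearts, 7.32, 7.57 and 7.20 in KO PBS hearts, 8.32, 7.25 and 7.23 in WT AngII hearts, and 7.79 and 7.31 in WT PBS hearts. WT AngII 2 was highest there by 0.53, and its AngII differences were −0.19 ± 0.29 in KO and 0.05 ± 0.29 in WT, or −0.31 in WT without that array. With the block the KO value was −0.02. The dim 1421610_at and 1441884_x_at spanned 5.49 to 5.98 and 4.75 to 5.40. For the second one AngII against PBS in KO was 0.33 ± 0.14 without overlap, or 0.25 with the block. Its name also carries the x that marks probes which may bind other transcripts.

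The 24 measured of 27 other chemokine genes had 0 calls in each of the 5 comparisons, and their median difference was 0.10 for AngII in KO, −0.01 for AngII in WT, 0.12 for the interaction, −0.003 for KO minus WT in the PBS groups and 0.08 in the AngII groups. The smallest unadjusted p-values for AngII in WT were those of the neutrophil attractants Cxcl2, at −0.26 ± 0.10 (−0.12 without WT PBS 3), and Cxcl3, at −0.25 ± 0.11 (−0.45 without WT PBS 3), and of Cxcl15, at 0.31 ± 0.14 (adjusted p = 0.929 for each). Cxcl3 read 3.81, 3.87 and 3.92 in WT AngII hearts, 3.91 on WT PBS 3 and 4.31 on WT PBS 5, so its difference leaned on WT PBS 5. The mean levels over all arrays, 3.97 for Cxcl2, 3.92 for Cxcl3 and 5.85 for Cxcl15, lay below the median of all probe sets, 6.19. Whether the weak signals of these genes had a part in the differences was not tested. All 3 are CXC genes, and Cxcl15 and Cxcl2 flank Cxcl1 on chromosome 5. Of 23 chemokine receptor genes 21 were measured and 0 were called. The smallest p for AngII in KO was that of Cxcr6, the receptor of Cxcl16, which read 4.83 and 4.67 in KO AngII hearts and 4.43, 4.28 and 4.49 in KO PBS hearts (0.35 ± 0.11, adjusted p = 0.892, and 0.26 with the block). The mean level of Cxcr6, 4.48, also lay below the median of all probe sets, and the part of its weak signal was not tested. Cxcr4, the receptor of Cxcl12, and Cx3cr1, the receptor of Cx3cl1, read 7.09 and 6.45 on WT AngII 2, against 5.62 to 6.15 and 5.30 to 5.66 on the other arrays. Ackr3 had its lowest reading there, 10.01 against 10.36 to 10.99. The receptors of Ccl2 and Ccl5, Ccr2 and Ccr1, spanned 7.46 to 8.01 and 5.60 to 6.34.

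Among 6 proteases that cut chemokines, 0 were called. Adam10, which sheds Cx3cl1, lay below WT in KO hearts without overlap, by −0.43 ± 0.18 under PBS (adjusted p = 0.769) and −0.47 ± 0.18 under AngII (0.734), or −0.31 under AngII without WT AngII 2. Dpp4, which clips Cxcl12, was 0.38 ± 0.17 for AngII in WT (0.929). Of 16 NF-kB targets and inflammatory cytokines 15 were measured and 0 were called, with a median of −0.27 for KO against WT under PBS, 12 of 15 below 0, which was −0.05 without WT PBS 3. The inhibitor Nfkbia had the smallest p there, at −0.42 ± 0.16 (0.741), a value of −0.53 without WT PBS 3.

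The leukocyte markers did not single out WT PBS 3. The mean of the 12 macrophage markers was 8.36 and 8.50 in KO AngII hearts, 8.11 to 8.29 in KO PBS hearts, 8.35 to 9.50 in WT AngII hearts, and 8.44 on WT PBS 3 and 8.66 on WT PBS 5, and 1 of the 12 lay below the median level of all probe sets. The 5 measured of 7 neutrophil markers averaged 6.54 and 6.30 in KO AngII hearts, 6.2 to 7.10 in KO PBS hearts, 6.65 to 7.17 in WT AngII hearts, and 7.04 on WT PBS 3 and 7.75 on WT PBS 5. Macrophage markers gave 12 of 12 below 0 for KO against WT under PBS, with a median of −0.32, and 0 called. In the same comparison 5 of 5 neutrophil markers (median −0.17) and 6 of 6 smooth muscle and pericyte markers (median −0.27) lay below 0, with 0 called. Endothelial markers had 5 of 6 below 0 (median −0.27), and T cell markers had 2 of 5 below 0 (median 0.01). Ccl8, Ccl5 and Cxcl14 also read lower in KO PBS than in WT PBS hearts. The part of the marker differences in those readings was not tested. For KO against WT under AngII, where the median of the members was 0.23, the macrophage markers also gave 12 of 12 below 0, with a median of −0.40, or 0.07 without WT AngII 2. The reading of 18S ribosomal RNA was highest on WT PBS 3, at 9.39 against 6.65 to 8.18 elsewhere, and its part in the chemokine readings of that array was not tested.

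For the 3 members with the smallest p-values, the genes with the most similar profile were sought among 12122 genes over the 9 arrays without WT AngII 2, by Pearson's r to the brightest probe set, with no test. That probe set was 1418456_a_at for Cxcl14 and 1417574_at for Cxcl12, whose smallest p-values came from 1418457_at and 1448823_at, and 1415804_at for Cx3cl1, which also gave that gene's smallest p-value. Cxcl14 was followed by Depp1 (r = 0.97, and 0.89 over all 10 arrays), Hmox2 (0.95 and 0.94) and Il3ra (0.94 and 0.58). Cxcl12 was followed by Lsg1 (0.95 and 0.71), Fzd5 (0.93 and 0.36) and Cep85 (0.92 and 0.93). Cx3cl1 was followed by Kif18b (0.99 and 0.90), Efr3b (0.98 and 0.78) and Steap3 (0.98 and 0.93). High correlations arise among so many genes over 9 points, and the arrays share their groups and the control transcript split.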

How the data were processed

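Transcripts of 10 hearts were measured on 1-colour arrays from 6 µg of total RNA, per the labels' protocols. The authors deposited log2 expression levels, and the submitters' processing notes name RMA, with its version not given in the sources used. RMA equalises the arrays' distributions, which removes overall shifts, and it compresses small differences of dim transcripts. Without the 64 control probe sets, 45037 entered a limma fit (version 3.58.1, R 4.3.3) of the 4 groups with a two-sided moderated test and a trended prior variance. Each comparison was adjusted over its 45037 probe sets (Benjamini-Hochberg), and a probe set was called at an adjusted p under 0.05. Symbols came from the platform annotation, updated through RefSeq (GRCm38.p6), which was also used for neighbouring genes. The brightest probe set on average stood for a gene. Precision is limited by the number of arrays.

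The members and the gene lists were chosen with earlier results of these data known. All probe sets of the members are named; from other lists, called genes and otherwise up to 3 with the smallest p in the comparison described; for likeness, the 3 members with the smallest p. Receptors and cluster neighbours of members were also named, after their values were seen. The labels do not say what the title numbers mean. Of 10 pairs with the same number, 1 had deviations that correlated above 0.1 (r from −0.36 to 0.10). The pairs share arrays and the groups are small, so this check cannot exclude a pairing. Alternatives covered array scaling, a filter on dim probe sets, the variance prior, array weights, blocks for title number and control transcripts, probe set means per gene, and each array left out.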

Additional observations from a re-analysis of the deposited data

Results flagged for a closer look

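Both probe sets of Cxcl14 were flagged because the AngII difference had opposite signs in the 2 genotypes and no AngII array departed from them. Every KO AngII array lay above the KO PBS mean and every WT AngII array lay below the WT PBS mean. Opposite signs alone were not particular to Cxcl14. Ccl5 (0.17 in KO, −0.29 in WT), Ccl8 (0.74 and −0.25) and Cxcl10 (−0.01 and 0.16) also had them, while others such as Ccl11 did not. The share of all probe sets that meet this rule is not given. For Cxcl14 (1418457_at) the difference was 0.65 in KO and −0.34 in WT, an interaction of 0.99 ± 0.22. For Cxcl14 (1418456_a_at) it was 0.35 in KO and −0.21 in WT, an interaction of 0.57 ± 0.31. Neither interaction passed limma's test (adjusted p = 1 for each), and neither changed sign without WT AngII 2 (1.07 and 0.49) or with the control transcript level as a block (0.82 and 0.66). For 1418456_a_at the opposite signs were lost without WT PBS 5, where AngII in WT was 0.15 and the interaction 0.20, and with the title number as a block, where AngII in WT was 0.05. For 1418457_at they remained under both, with AngII in WT at −0.29 and −0.43.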

How the results depend on the processing

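Of 1811 chemokine values under alternative settings, 1673 kept their direction and their side of the threshold, 131 changed sign with neither value called and 7 became called. The count of called chemokine probe sets was 0 with all arrays. Leaving out 1 array at a time it ranged from 0 to 1 for AngII in WT, for the interaction and for KO against WT under PBS, and was 0 throughout for AngII in KO and for KO against WT under AngII. The 1 call in each case was Ccl2 without WT PBS 5, where the lone WT PBS 3 was assumed to vary like the other groups. With the title number as a replicate block, which does not follow a pairing shown by the design, the count was 1 for AngII in WT (Ccl2, −3.07, adjusted p = 0.0121) and 1 for KO against WT under PBS (Ccl2, −2.79, 0.0104), and 0 in the other 3 comparisons. With array weights it was 2 for KO against WT under AngII: Cxcl12 (1417574_at) at 0.52 (0.0295) and Cxcl14 (1418457_at) at 0.35 (0.0493). With these weights 2911 of all 45037 probe sets (6.46%) were called in that comparison, against 5 without them, and the cause was not tested. Over 20 alternatives the adjusted p of both ran from these values to 1, and that of the Ccl2 values under the block to at least 0.9998. Within the arrays of low control transcripts a value could be had for AngII in KO alone, and within those of high ones for AngII in WT and for KO against WT under PBS. A fit limited to the groups compared equals the full one for the interaction. With 2 or 3 arrays a group, and both KO AngII arrays low in control transcripts, KO against WT under AngII cannot be told apart from that split except through KO PBS 4. The same holds for AngII in KO and for the interaction.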

Other observations

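Interferon response genes, which share regulators with Cxcl10, had 16 of 19 members measured and 0 called in each comparison. For KO against WT under PBS the smallest p-values were those of Ifit1, at −0.75 ± 0.21 (adjusted p = 0.6), and Ifit2, at −0.61 ± 0.19 (0.671), both RNA-binding antiviral proteins and both lower on every KO PBS array than on the WT PBS arrays, followed by the transcription factor Irf1 at 0.29 ± 0.17 with overlap. Under AngII the guanylate-binding protein Gbp3 had the smallest p, at −0.59 ± 0.15 for KO against WT (0.734), or −0.50 without WT AngII 2 and −0.45 with the control transcript level as a block. The list's median was −0.04 under PBS and −0.01 under AngII.

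Markers of the other leukocytes had 0 calls: T cells (5 of 6 measured), B cells (3 of 4), NK cells (3 of 4), and mast cells and eosinophils (6 of 6), with array means of 6.23 to 6.67, 5.63 to 5.84, 5.26 to 5.47 and 5.46 to 5.76. Endothelial, smooth muscle and mesothelial markers, with 6, 6 and 3 measured, also had 0 calls. The 8 fibroblast markers had 0 calls and a median of 0.88 for AngII in KO, and of 1.19 for AngII in WT, which was 0.40 without WT AngII 2.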
